A study of Caenorhabditis elegans with 78 samples.

Results

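The peaks of H3K36me3 and of H3K27me3 were compared in wild-type *C. elegans*, as 2 histone H3 marks mapped by ChIP sequencing in the same strain at the same temperature and generation. The members are the 2 H3K36me3 and the 2 H3K27me3 libraries of N2, the wild-type strain, grown at 25°C and collected in the F3 generation. They are 4 of 78 samples of the series and 4 of 20 with a peak list, and they hold 62683 of 300638 listed peaks. Both marks were immunoprecipitated from chromatin of whole young adults, with the Active Motif antibody 61902 for H3K36me3 and the antibody MABI0323 for H3K27me3. The N2 animals carry no mutation, and both groups share strain, stage, temperature and generation, so that they differ by the antibody. The *jmjd-5(zr1234)* mutant, an allele with point mutations in the JmjC domain of a protein studied as a histone demethylase, was set beside N2 with 2 libraries per mark from the same stage, temperature and generation, and so were the 2 N2 libraries of H3K36me2 at 25°C. Libraries are numbered as replicates. The study calls its H3K36me2 and H3K27me3 ChIP replicates biological, and no label says whether the libraries came from separate cultures, so that p-values measure only the spread between these libraries, which may be technical.

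H3K36me3 lies over the bodies of transcribed genes. In *C. elegans* it is placed by MET-1, which acts with transcription, and by MES-4, which maintains it on germline-expressed genes across generations. H3K27me3 is the product of the PRC2 complex of MES-2, MES-3 and MES-6 and lies over repressed genes, and in the germline it is known to be concentrated on the X chromosome, which is largely silent there. Loss of MES-4 is known to let H3K27me3 spread in the germline, and nucleosomes with methylated lysine 36 are poor substrates for PRC2 in biochemical assays. A whole young adult holds a large germline together with somatic tissues, and a peak list of such chromatin cannot tell whether 2 marks at one place sat on one nucleosome or in different cells.

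A peak is an interval in which MACS2 found more reads in the precipitate than in its control. Each library was called on its own, and the lowest −log10 p in the deposited lists is 10. The lists give a fold enrichment over the control for every peak, without scaling to the *Drosophila* spike-in and without read depth. They therefore show where a mark was called and not how much of it was present. Coordinates are those of the files, in build ce10 per the labels, while the study's methods name a WormBase genome without its release for the ChIP reads. Covered lengths are set against a span of 100.3 Mb, the sum over the 6 chromosomes of the length up to the last peak in any list.

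The 2 marks were called in nearly separate parts of the genome. H3K36me3 had fewer peaks than H3K27me3, and its peaks were wider. H3K36me3 had 13351 and 13487 peaks in its 2 libraries, against 17674 and 18171 peaks for H3K27me3. The means were 13419 ± 96.2 and 17922.5 ± 351 peaks (SD, n = 2 each), and the lists did not overlap in number. The covered length was 7.67 and 8.11 Mb for H3K36me3, against 8.65 and 8.74 Mb for H3K27me3. With 2 libraries against 2, the exact two-sided permutation test cannot give a p below 0.333, and it gave 0.333 for both measures, also after adjustment over the 6 tests of H3K36me3 against H3K27me3.

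These 2 differences depended on the peak threshold. Of the H3K36me3 peaks, 86.0% and 85.2% had a −log10 p of at least 20, against 63.3% and 67.4% of the H3K27me3 peaks. With that minimum, the mean number of peaks was 11482.5 for H3K36me3 and 11722.5 for H3K27me3, a difference of −240 peaks (exact permutation p = 1). The covered length then turned round, with 7.21 Mb for H3K36me3 and 6.51 Mb for H3K27me3.

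H3K36me3 peaks were wider in both libraries than the H3K27me3 peaks in either of theirs. The median width was 418 and 440 bp for H3K36me3, against 341 and 337 bp for H3K27me3 (429 ± 15.6 and 339 ± 2.83 bp, SD, n = 2 each). The difference of 90 bp exceeded the spread between libraries, with the smallest p this design allows (exact permutation p = 0.333). The widest 10% of peaks began at 1082 and 1131.4 bp for H3K36me3, against 892 and 867 bp for H3K27me3. Peaks over 1000 bp made up 11.8% and 13.0% of the H3K36me3 lists, against 7.61% and 7.38% of the H3K27me3 lists. The longest peak measured 17146 and 17244 bp for H3K36me3, against 11807 and 11725 bp for H3K27me3. Both marks were thus called mostly as short intervals. The curves of width lay apart up to 2842 bp and crossed among the few wider peaks.

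**Figure D1:**
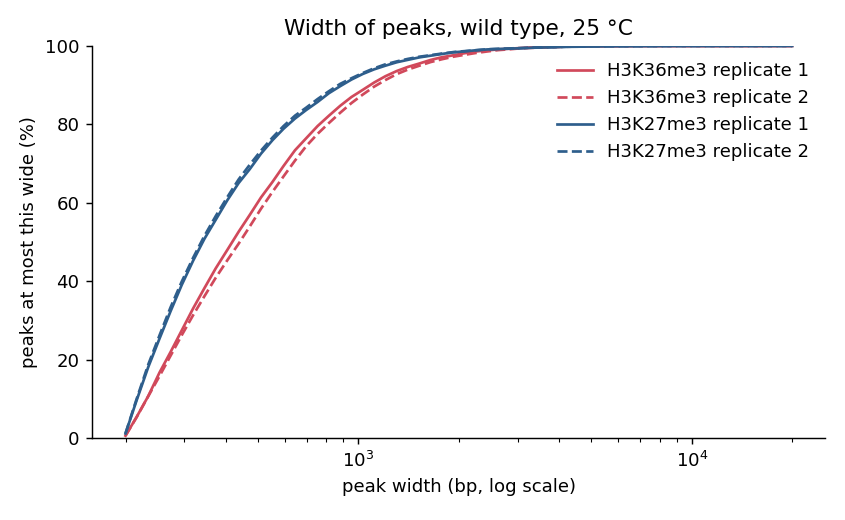
Share of peaks (y axis, percent) at most as wide as the value on the x axis (bp, log scale), with 1 line per library (solid: replicate 1, dashed: replicate 2). Up to 2842 bp both H3K36me3 lines lie to the right of both H3K27me3 lines, with medians of 418 and 440 bp against 341 and 337 bp. Among the few wider peaks the lines cross. At most 7250 bp wide are 99.99% of the peaks in each H3K36me3 library, against 99.95% and 99.96% for H3K27me3.

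The median fold enrichment was 4.42 and 4.23 for H3K36me3, against 2.97 and 3.04 for H3K27me3. The highest fold enrichment of a peak was 12.3 and 11.3 for H3K36me3, against 7.36 and 7.60 for H3K27me3. The antibodies and the depth of the libraries differ in unknown measure, and these ratios do not compare the amounts of the marks.

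The chromosomes were divided unequally between the marks. H3K36me3 peaks outnumbered H3K27me3 peaks on chromosomes I and III, and H3K27me3 peaks were the more numerous on II, IV, V and X. Chromosome III had 222.5 H3K36me3 peaks per Mb, against 129.1 H3K27me3 peaks per Mb, a ratio of 1.72. On chromosome I there were 207.7 H3K36me3 peaks per Mb, against 148.0 for H3K27me3, a ratio of 1.40. Chromosomes II and IV had ratios of 0.720 and 0.723. The lowest ratios were 0.356 on chromosome V, with 81.7 H3K36me3 and 229.8 H3K27me3 peaks per Mb, and 0.352 on X, with 56.8 H3K36me3 and 161.4 H3K27me3 peaks per Mb. On each of the 6 chromosomes the 2 libraries of a mark lay closer to each other than to those of the other mark.

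**Figure D2:**
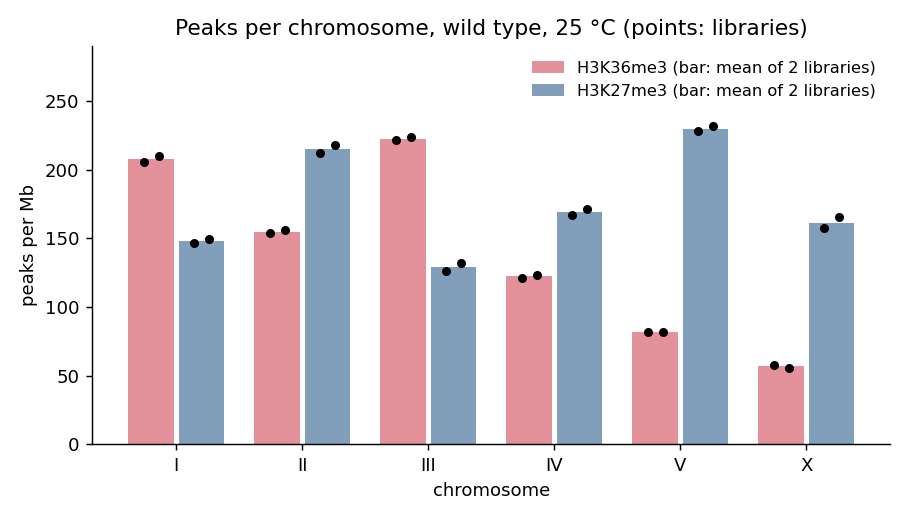
Peaks per Mb of chromosome span (y axis) on the 6 chromosomes (x axis) for H3K36me3 (left bar) and H3K27me3 (right bar); bars are means of 2 libraries and points are the libraries. H3K36me3 is higher on I and III, and H3K27me3 is higher on II, IV, V and X, most of all on V (81.7 against 229.8) and X (56.8 against 161.4).

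The X chromosome held 17.7% of the span. Of the H3K36me3 peaks, 1023 of 13351 (7.66%, 95% Wilson interval 7.22% to 8.13%) and 989 of 13487 (7.33%, 6.91% to 7.79%) lay on X. Of the H3K27me3 peaks, 2794 of 17674 (15.8%, 15.3% to 16.4%) and 2926 of 18171 (16.1%, 15.6% to 16.6%) did. The intervals cover counting error only. The mean share on X was 7.50% ± 0.233 for H3K36me3 and 16.0% ± 0.208 for H3K27me3 (SD, n = 2 each), a difference of −8.46 percentage points (exact permutation p = 0.333). H3K27me3 peaks were therefore somewhat under the share of X in the span, and H3K36me3 peaks were further under it. By length, 14.2% and 14.5% of H3K27me3 lay on X, against 8.06% and 7.84% of H3K36me3. Among the 5000 peaks of highest −log10 p in each library, the mean share on X was 2.39% for H3K36me3 and 10.9% for H3K27me3. Where H3K36me3 was called on X its regions were not narrower, with a median of 527 bp on X against 474 to 527 bp on the autosomes. H3K27me3 regions were narrower on X, with a median of 352 bp against 385 to 431 bp on the autosomes.

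Along the autosomes, H3K36me3 was about as dense in the outer parts as in the middle, and H3K27me3 was concentrated toward the ends. Each chromosome was cut into 3 equal parts, and the outer parts, 66.7% of the length, were taken as its arms. The arms of worm autosomes are known to recombine often and to be rich in repeats and in genes of low or tissue-restricted expression. Of the autosomal peaks, 65.8% and 64.9% of H3K36me3 lay in the arms, against 84.2% and 84.1% of H3K27me3. The means were 65.3% ± 0.610 and 84.1% ± 0.108 (SD, n = 2 each), a difference of −18.8 percentage points (exact permutation p = 0.333). The share for H3K36me3 was close to the share of the arms in the length.

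Peaks found in both libraries of a mark were joined into regions, of which there were 12105 for H3K36me3 (8.00 Mb, median 494 bp) and 15661 for H3K27me3 (8.57 Mb, median 389 bp). These hold 94.9% and 90.8% of the H3K36me3 peaks, and 89.9% and 87.9% of the H3K27me3 peaks. In the arms of the autosomes H3K36me3 regions covered 8.78% of the length, and in the centres 9.22%. H3K27me3 regions covered 11.6% of the arms and 3.68% of the centres. The ratio of arms to centre for H3K36me3 lay between 0.813 (III) and 1.13 (I) on the 5 autosomes. For H3K27me3 it lay between 2.22 (IV) and 4.75 (II), so that the marks did not overlap in this ratio on any autosome. On X the ratio was 1.19 for H3K36me3 and 1.73 for H3K27me3. H3K36me2, the dimethyl form of the same lysine, had a ratio of 2.83 over the autosomes, nearer to that of H3K27me3 (3.14) than to that of H3K36me3 (0.952).

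**Figure D3:**
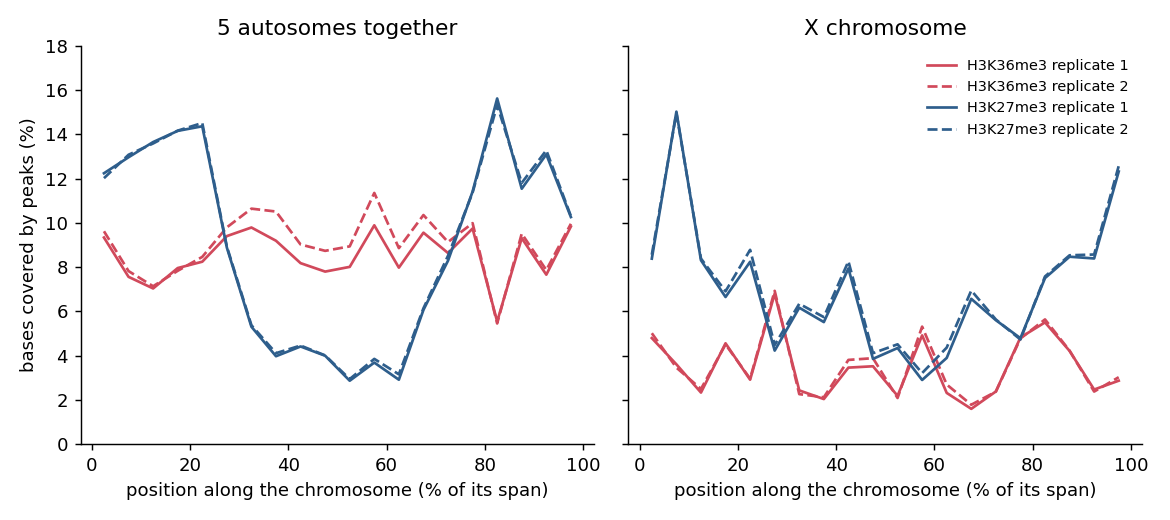
Share of bases covered by peaks (y axis, percent) in 20 equal bins along the chromosome (x axis, percent of its span), for the 5 autosomes together (left) and X (right), with 1 line per library. On the autosomes H3K27me3 is high at both ends and low in the middle. H3K36me3 varies between bins, from 5.46% to 11.4% in replicate 2, without such a contrast of ends and middle. On X most bins have more H3K27me3 than H3K36me3.

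The *jmjd-5(zr1234)* libraries showed the same contrasts between the marks. The mean share of peaks on X was 7.96% for H3K36me3 and 16.1% for H3K27me3, the share in the arms 65.5% and 83.5%, and the median width 418.5 and 331.5 bp. When labels of the marks were permuted within each genotype over the 8 libraries, the exact two-sided p was 0.0556 for each of the 5 measures (number of peaks, covered length, width, share on X and share in the arms), the smallest that this design can give.

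Identity of the lists followed the mark. The shared length of 2 lists divided by their joint length (Jaccard index) was 0.851 between the H3K36me3 libraries and 0.808 between the H3K27me3 libraries. Between the marks it lay from 0.00434 to 0.00644 in the 4 pairs of libraries. The mean within marks was 0.829 and between marks 0.00535 (one-sided exact permutation p = 0.333, the smallest possible). For comparison, H3K36me3 and H3K36me2 libraries had an index of 0.204 to 0.227.

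H3K36me3 and H3K27me3 regions overlapped far less than they did when one set was moved along the chromosome. The regions of both marks shared 75252 bp, which was 0.940% of the H3K36me3 length and 0.878% of the H3K27me3 length. H3K27me3 regions covered 8.55% of the span. H3K36me3 regions were then displaced as a whole by fixed distances of 100, 200, 500 and 1000 kb in either direction, wrapping round at the chromosome ends, which keeps their number, width and spacing. After these 8 displacements, 7.27% to 8.27% of the H3K36me3 length fell inside H3K27me3 regions, with a mean of 7.85%, or 8.34 times the value in place. The displacements are a description of these lists, and no p was drawn from them.

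The overlap did not return within a few kb. At displacements of 1 kb it was lower than in place, with 0.580% and 0.679% to either side. At 5 kb it was 3.07% and 2.92%, and at 10 kb 5.05% and 5.19%. At 50 kb it reached 7.25% and 7.51%, near the level at larger distances. In place, the overlap was thus higher than 1 kb away and lower than at any displacement of 5 kb or more.

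**Figure D4:**
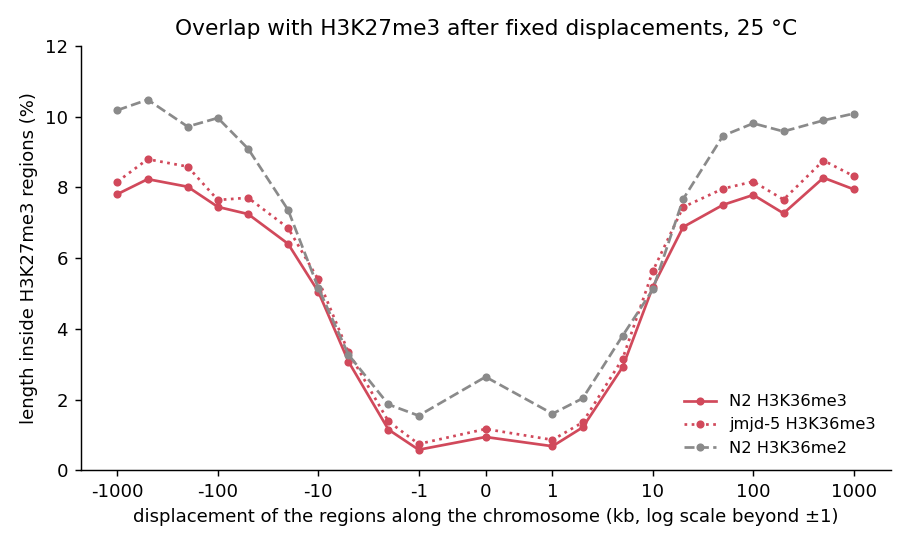
Share of the length of H3K36me3 (N2, solid; *jmjd-5*, dotted) and of H3K36me2 (N2, dashed) regions inside H3K27me3 regions of the same genotype (y axis, percent), after displacement along the chromosome (x axis, kb, log scale beyond 1 kb; 0 is in place). All 3 curves are low within 2 kb and reach their plateau at 50 to 100 kb; N2 H3K36me3 has 0.940% in place and 7.85% on average at 100 kb or more.

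The low overlap was present in each pair of single libraries and grew lower with a stricter threshold. Over the 4 pairs of an H3K36me3 and an H3K27me3 library, 0.893% to 1.37% of the H3K36me3 length was shared (mean 1.12%, SD 0.222). With a −log10 p of at least 20 the regions shared 0.165% of the H3K36me3 length, against a mean of 5.33% when displaced. With the 5000 strongest peaks per library they shared 0 bp, against 2.62% when displaced. In *jmjd-5(zr1234)* the share was 1.17%, against 8.26% when displaced, and its 4 pairs lay between 1.17% and 1.51%, overlapping the range of N2.

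On all 6 chromosomes the share in place was under the share after displacement. For H3K36me3 it was 1.49% in place on chromosome I, against 7.58% when displaced, and 0.900% on III, against 5.91%. On II, IV and V it was 0.737%, 0.755% and 0.773%, against 9.42%, 8.17% and 9.58% when displaced. On X it was 0.621%, against 6.96%. In the autosome arms, where H3K27me3 covered 11.6% of the length, 1.41% of the H3K36me3 length lay in H3K27me3 regions. In the centres 0.128% did, at a coverage of 3.68%. The share in place relative to the coverage was thus 0.122 in the arms, 0.0349 in the centres and 0.0919 on X.

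H3K36me2 libraries shared more of their length with H3K27me3 than H3K36me3 libraries did. H3K36me2 regions covered 29.2% of the H3K36me3 length, and 41.5% of the H3K36me2 length lay in H3K36me3 regions. Of the H3K36me2 length, 2.64% lay in H3K27me3 regions, against 9.97% when displaced. Against H3K27me3 peaks of single libraries, the shared length was 1.31% and 0.938% for the H3K36me3 libraries and 2.72% and 3.18% for the H3K36me2 libraries. The means were 1.12% ± 0.260 and 2.95% ± 0.322 (SD, n = 2 each), a difference of −1.83 percentage points with no overlap of the libraries (exact permutation p = 0.333, the smallest possible). The H3K36me2 lists held more weak peaks. Of their peaks 67.2% and 69.5% had a −log10 p of at least 20, against 86.0% and 85.2% for H3K36me3. The comparison was not repeated at a matched strength of peaks.

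Of the 12105 H3K36me3 regions, 113 touched an H3K27me3 region by 1 bp or more (0.933%, 95% Wilson interval 0.777% to 1.12%). Of the 15661 H3K27me3 regions, 115 touched an H3K36me3 region (0.734%, 0.612% to 0.881%). Regions that touched the other mark were more often among the weakly enriched ones. H3K36me3 regions were ranked by −log10 p and cut into 5 groups of 2421. From the weakest to the strongest, 84, 18, 9, 2 and 0 of them touched H3K27me3, where 0 of 2421, taken as at most 3 counts, allows a share of up to 0.124%. For H3K27me3 regions, in groups of 3132 or 3133, the counts were 48, 28, 20, 11 and 8.

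The median fold enrichment of H3K36me3 regions that touched H3K27me3 was 2.68, against 4.47 for the rest. For H3K27me3 regions it was 2.57 in those that touched H3K36me3, against 3.06 in the rest. Those H3K27me3 regions were wide, with a median of 641 bp against 388 bp. By width, from the narrowest to the widest group, 4, 11, 16, 32 and 52 H3K27me3 regions touched H3K36me3. A wider region has more room to meet another one, and no adjustment was made for this. Summits, the points of highest signal, lay inside the other mark for 98 H3K36me3 and 102 H3K27me3 regions.

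Enrichment also varied with distance from the other mark. H3K36me3 regions had a median fold enrichment of 3.53 where the nearest H3K27me3 region was up to 1 kb away (133 regions) and of 4.22 at 1 to 5 kb (2095 regions). It was 4.53 at 5 to 20 kb (6721 regions) and 4.54 beyond 20 kb (3043 regions). For H3K27me3 regions the medians over the same distances to H3K36me3 were 2.68, 2.88, 3.01 and 3.18. In both marks the regions nearest the other mark were thus the lower ones, and for H3K36me3 the medians no longer changed by much beyond 5 kb.

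The regions shared 118 stretches, with a median of 475.5 bp and a longest of 4010 bp. In 51 of them the edges of 2 regions overlapped, in 34 an H3K36me3 region lay inside an H3K27me3 region, and in 33 an H3K27me3 region lay inside an H3K36me3 region. There were 26 stretches on chromosome I, 21 on II, 25 on III, 19 on IV, 18 on V and 9 on X. Of the 118, 66 (55.9%) overlapped a stretch with both marks in *jmjd-5(zr1234)*, and 41 (34.7%) touched an H3K36me2 region of N2. By length, 36.6% of the stretches lay in H3K36me2 regions, against 29.2% of all H3K36me3 length and 1.73% of all H3K27me3 length. The megabase from 14 to 15 Mb of chromosome I held 15.0% of the shared length, and that from 11 to 12 Mb 9.62%. Without the first of these, a choice made after seeing the data, the shared length was 0.811% of H3K36me3 and 0.759% of H3K27me3.

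The 5 longest stretches called for both marks in all 4 libraries were all on chromosome I. The longest was chrI:14267045-14268917, of 1873 bp, and another of 1593 bp lay beside it at chrI:14264999-14266591. Both fall in the widest H3K27me3 region of the chromosome, chrI:14264941-14270821, of whose 5881 bp 4708 bp lay in H3K36me3 regions, with a mean fold enrichment of 4.07 for the H3K36me3 region and 3.63 for the H3K27me3 region. The stretches chrI:11752233-11753702 and chrI:11769291-11770620 had fold enrichments of 4.35 and 3.22 for H3K36me3, and of 2.50 and 2.83 for H3K27me3. In chrI:14890239-14891429 the values were 2.47 for H3K36me3 and 2.09 for H3K27me3, and the whole stretch was also in an H3K36me2 region. All 5 were called at least in part for both marks in all 4 *jmjd-5(zr1234)* libraries, over 632 to 1873 bp. No annotation of build ce10 was at hand, and genes were not assigned to regions.

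Regions of the 2 marks also kept a distance. From an H3K36me3 region the nearest H3K27me3 region lay a median of 11407 bp away, and 10% of the regions had one within 3113 bp. After displacement by 100 kb or more the median was 3983 to 4777 bp (mean 4350 bp). Within 500 bp, 152 of 12105 H3K36me3 regions (1.26%) had an H3K27me3 region, against 23.2% to 24.5% at displacements of 100 and 500 kb. Within 5 kb it was 19.3%, against 52.3% to 54.1%. Over the 4 pairs of single libraries the median distance was 10584.5 ± 291 bp (SD over pairs, which share libraries). In *jmjd-5(zr1234)* it was 10943 bp.

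Distances within a mark were short by comparison. From an H3K36me3 region the nearest other H3K36me3 region on either side was a median of 445 bp away. From an H3K27me3 region the nearest other H3K27me3 region was 656 bp away. From an H3K27me3 region the nearest H3K36me3 region lay a median of 17570 bp away, farther than in the other direction. H3K36me3 regions lay nearest to H3K27me3 on X (median 7827.5 bp), farther in the autosome arms (10744 bp) and farthest in the centres (13804 bp). H3K27me3 regions had the opposite order, with 21587 bp on X, 18409.5 bp in the arms and 11128.5 bp in the centres. Among the chromosomes, the median from H3K36me3 to H3K27me3 was longest on III (14466 bp) and I (13396 bp), which have the fewest H3K27me3 peaks per Mb.

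The depletion around a region reached beyond 10 kb. In the first 500 bp outside H3K36me3 regions, H3K27me3 regions covered 0.321% of the bases, and in the 500 bp centred 9.75 kb away 5.05%. At 29.75 kb it was 7.38%, within the 7.27% to 8.27% seen after displacement by 100 kb or more. Outside H3K27me3 regions, H3K36me3 covered 0.224% of the first 500 bp, 4.67% at 9.75 kb and 6.91% at 29.75 kb. Each mark covered most bases in the second 500 bp outside its own regions, with 30.7% for H3K36me3 and 21.7% for H3K27me3, after 15.5% and 11.0% in the first 500 bp. Peaks of a mark that met were joined, so that bases next to an edge cannot hold the same mark. The low first step is thus partly set by the method.

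**Figure D5:**
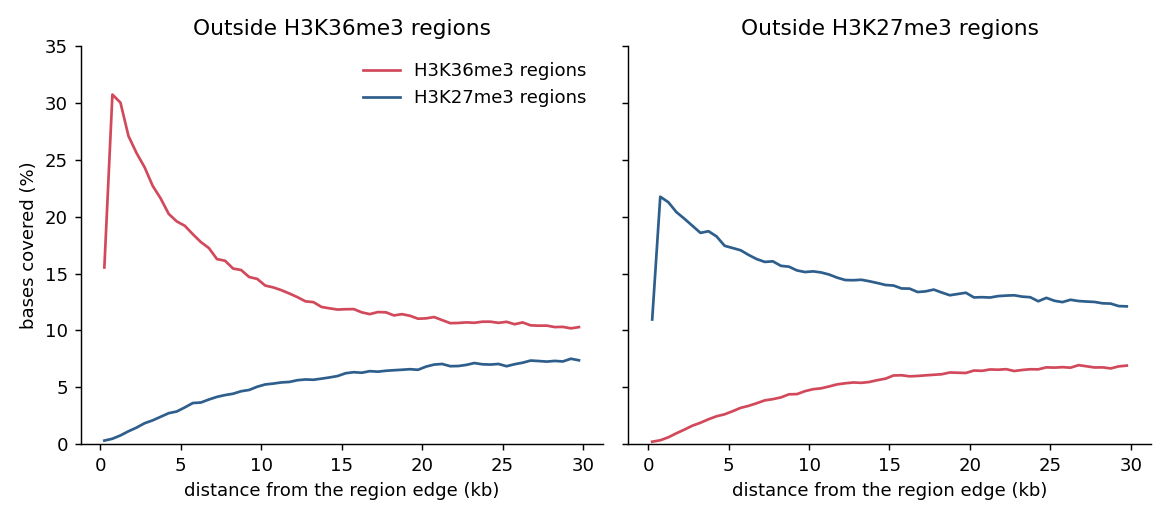
Share of bases covered by H3K36me3 and H3K27me3 regions (y axis, percent) in 500-bp steps from the edges of H3K36me3 regions (left) and of H3K27me3 regions (right), up to 30 kb (x axis). The mark itself is highest in the second step outside its own regions and then falls, while the other one climbs with distance, with 0.321% H3K27me3 beside H3K36me3 regions and 0.224% H3K36me3 beside H3K27me3 regions in the first step. Peaks of a mark that met were joined, so that bases next to an edge cannot hold the same mark.

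Read along the chromosomes, the regions came in runs of one mark. Of 27760 pairs of neighbouring regions, 3186 (11.5%) changed from one mark to the other. After displacement by 100 kb or more, 23.8% to 25.4% did, and a mixture of the marks in the proportions of each chromosome would give 45.1%. The share of changes was 10.2% to 11.6% on the autosomes and 15.7% on X. H3K36me3 formed 1594 runs with a mean of 7.59 regions, and H3K27me3 formed 1598 runs with a mean of 9.80. Runs of 10 or more held 64.5% of the H3K36me3 regions and 74.8% of the H3K27me3 regions. From first to last region, H3K36me3 runs took up 28.0% of the span (median 8257 bp) and H3K27me3 runs 46.3% (median 12815.5 bp).

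The H3K36me3 runs with the most regions were all on chromosome III. They held 63 regions over chrIII:4888168-5029365, 62 over chrIII:12596040-12747243 and 61 over chrIII:6338512-6463680, with no H3K27me3 region among them. The H3K27me3 runs with the most regions were all on the right arm of chromosome V. They held 227 regions over 544020 bp at chrV:16970660-17514679, 175 over chrV:18118496-18532025 and 150 over chrV:17539336-17844838, with no H3K36me3 region among them. These runs are maxima of the 2 lists and are given as a description.

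Gaps between neighbouring regions were widest where the mark changed. The median gap was 733 bp between H3K36me3 regions, 1177 bp between H3K27me3 regions and 5458.5 bp at a change of mark. Of the gaps at a change, 5.30% were under 500 bp, overlaps included, against 37.8% between H3K36me3 regions and 27.6% between H3K27me3 regions. H3K36me2 was found in these gaps in unequal measure. It covered 10.1% of the length between H3K36me3 neighbours, 4.01% of the length between neighbours of different mark and 0.269% of that between H3K27me3 neighbours. Of the whole span, H3K36me2 regions covered 5.61%. That span includes the H3K36me3 regions, of whose length 29.2% lay in H3K36me2 regions, and the gaps exclude them. The whole span is therefore not a like measure for the gaps. The shares of gap length from the single H3K36me2 libraries were 10.1% and 9.75% between H3K36me3 regions, 4.00% and 4.05% at changes, and 0.269% and 0.284% between H3K27me3 regions. Counted by gaps, the order of the first 2 kinds was the other way round. An H3K36me2 region was touched by 36.4% of the gaps at changes, 30.7% of those between H3K36me3 regions and 1.29% of those between H3K27me3 regions. Gaps at changes were the widest, and no adjustment was made for this.

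The widest and most strongly enriched regions are named here as a description, since nearly all regions of either mark did not touch the other one. The widest H3K36me3 region was chrI:4340453-4357696, of 17244 bp, with fold enrichments of 4.16 and 3.48 in its 2 libraries. The widest on the other chromosomes measured 6904 bp on IV (chrIV:3040434-3047337), 6311 bp on V (chrV:11903630-11909940), 6276 bp on II (chrII:13084189-13090464), 6208 bp on III (chrIII:6951994-6958201) and 4502 bp on X (chrX:4596143-4600644). None of these 6 held a base of H3K27me3 regions, and of all H3K36me3 regions 0.933% touched one. The highest enrichment was narrow by comparison, with 11.9 and 11.3 over the 450 bp of chrI:3574473-3574922. The next were chrIII:3420130-3420542, with 10.8 and 10.3, and chrII:12271090-12271451, with 11.1 and 9.81.

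For H3K27me3 the widest region was on X, chrX:7351272-7363078, of 11807 bp, with fold enrichments of 3.79 and 4.81. It was followed by 10494 bp on V (chrV:20299652-20310145), 8245 bp on IV (chrIV:9548313-9556557), 6968 bp on II (chrII:11210847-11217814), 5881 bp on I and 5282 bp on III (chrIII:9337585-9342866). All of these but the one on chromosome I, described above, had 0 bp in H3K36me3 regions, where 0.734% of all H3K27me3 regions touched one. The 3 highest enrichments were all on V, with 7.36 and 7.60 at chrV:2777424-2778066, 7.36 and 6.82 at chrV:14318895-14319653, and 6.75 and 7.14 at chrV:9161964-9162861.

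In windows of 5 kb, which were not matched to genes, the separation was partial. Of 20056 windows of 5 kb, 5266 held H3K36me3 regions only, 7815 H3K27me3 regions only, 695 (3.47%) both and 6280 neither. H3K27me3 was present in 11.7% of the 5961 windows with H3K36me3, where 42.4% of all windows held it. H3K36me3 was present in 8.17% of the 8510 windows with H3K27me3, where 29.7% of all windows held it. The share of H3K36me3 windows that held both marks was 7.91% on III, where 31.1% of all windows held H3K27me3, and 10.1% on I, where 33.5% did. It was 12.5% on IV and on X, with H3K27me3 in 42.5% and 41.7% of all windows. On V it was 14.5%, against 53.9% of all windows, and on II 15.1%, against 46.5%. In windows of 1 kb, 1.34% of those with H3K36me3 also held H3K27me3, against 20.6% of all windows. In windows of 20 kb it was 57.6%, against 71.5% of all windows, so that the share came nearer to that of all windows as the windows grew. For windows with H3K27me3, those that also held H3K36me3 were 1.07% at 1 kb, against 16.4% of all windows, and 44.0% at 20 kb, against 54.6% of all windows.

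Over 999 windows of 100 kb, the covered shares of the marks had a Pearson r of −0.341 and a Spearman rho of −0.367. Windows of one chromosome share their position on arm or centre and are not independent, and the values are a description. In 48 of these windows H3K36me3 covered over 20% of the length, in 89 H3K27me3 did, and in 0 both did.

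Some stretches had neither mark. The longest was chrV:12065245-12166839, of 101595 bp, without a peak of either mark in any of the 4 libraries. The next were chrIV:10499549-10589368, of 89820 bp with 568 bp of peaks in single libraries, and chrII:9422988-9504863, of 81876 bp with 215 bp. All 3 lay in the centres of their chromosomes.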

How the data were processed

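Per the labels and the study's methods, the authors mapped uniquely aligned reads with Bowtie, dropped PCR duplicates and ran MACS2 library by library at p = 1e-05. The labels name ce10 as the build. Versions and depths are not given in the sources used here. Each deposited list gives per peak a score, the ratio to the control (fold enrichment), and the p-value and q-value as −log10. It begins at a −log10 p of 10, a stricter limit than the stated p of 1e-05.

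Overlaps, distances and runs were computed in Python (3.11.15) using NumPy (version 2.4.6) and SciPy (version 1.17.1), and the procedures were tested on simulated intervals. An overlap of 1 bp counted as shared. Distances run between region edges, and neighbours were ordered by midpoint. Exact permutation tests compared the libraries, with p-values adjusted over 6 tests (Benjamini-Hochberg). They were two-sided, except that of the Jaccard index, in which only a larger difference of within minus between counted. Single library peaks were used for the tests and regions found in both libraries for the rest. Regions named are, for each mark, the widest per chromosome, the 3 of highest mean fold enrichment and the 3 runs of most regions, then the 5 longest stretches with both marks in all 4 libraries and the 3 longest with neither. The members, measures and rules were chosen with earlier results of these data known. Alternatives were a −log10 p of at least 20, the 5000 strongest peaks, regions of either library, a 50% overlap, summits, other windows and arms, and each library left out. The other peak lists and the RNA data were not used here.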

Additional observations from a re-analysis of the deposited data

How the results depend on the processing

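With 2 libraries against 2, no alternative could pass a threshold, and only directions can be compared. Of 37 alternatives for the 6 measures tested over libraries, 35 kept the direction and 2 turned it. One that kept it was the difference in number of peaks, −4503.5 with all peaks and −240 with a −log10 p of 20 or more. The covered length of H3K36me3 minus that of H3K27me3, −0.809 Mb with all peaks, was 0.694 Mb with a −log10 p of at least 20 and 0.486 Mb with the 5000 strongest peaks per library. These alternatives remove weak peaks, of which H3K27me3 has the larger share. Of 47 alternatives for the 5 measures described on regions, 18 moved by less than 1 SD over the library pairs and 29 moved by more.

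With the minimum −log10 p at 20, the shared length came to 0.165% of H3K36me3 and 0.197% of H3K27me3, the median distance 16814 bp, the change of mark 11.7% and the windows of H3K36me3 with both marks 5.36%. With the 5000 strongest peaks these were 0% and 0%, 32310 bp, 14.5% and 1.23%. With regions of either library they were 1.43% and 1.27%, 9882.5 bp, 10.9% and 15.1%. By summits, 0.651% of H3K27me3 lay in H3K36me3 regions and the distance was 12022 bp. Windows of 1 kb gave 1.34% and windows of 20 kb 57.6%. In all of these the shared length stayed under that of the displaced regions where that was computed. Displaced regions had a median distance of 8615 bp with the minimum at 20, 21257 bp with the 5000 strongest peaks and 3326 bp with regions of either library. With all peaks it was 4350 bp. Their changes of mark were 22.6%, 21.3% and 24.8%, against 24.6% with all peaks. Distances thus grew in the displaced lists too when weak peaks were removed.

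Leaving out each library in turn gave 0.888% to 1.23% of the H3K36me3 length, 0.840% to 1.10% of the H3K27me3 length, 10329 to 11499 bp, 11.0% to 11.5% changes of mark and 11.8% to 13.1% of windows. The highest shares of length were those without H3K36me3 replicate 2. The number of peaks then differed by −4752 to −4255, the covered length by −1.03 to −0.587 Mb, the median width by 79 to 101 bp, the share on X by −8.62 to −8.29 and the share in the arms by −19.2 to −18.4 percentage points.

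The replicate numbers are shared by the marks, but no label ties a number to a culture, so that they were not read as pairs. Over 5-kb windows the deviations of same-numbered libraries had r = −0.0159. Regions of both marks were present in only 3.47% of 5-kb windows, so that this r cannot decide whether the numbers are pairs. With the replicate block, the differences were the same (−4503.5 peaks, for one), and the exact sign-flip p was 0.5, the smallest for 2 pairs. Depth, antibody efficiency and spike-in scaling are unknown for these lists. A missing peak can be a mark below the detection limit of its library, and intervals and limits from 0 counts cover counting error only.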
